A study of Mus musculus with 45 samples.

Results

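Transcript levels of 10 genes of iron and zinc handling were followed through ethanol feeding and recovery in mouse liver. The genes were taken by name from the 24946 usable genes of the deposited expression table, and the list of names was drawn up with earlier results of these data known. They are the hepcidin genes Hamp and Hamp2, the iron carrier gene Trf, the uptake genes Tfrc, Slc39a14 and Steap4, the exporter gene Slc40a1, the storage gene Fth1, and the metallothionein genes Mt1 and Mt2. All 10 passed the minimum mean of 0.5 TPM (transcript abundance corrected for length and scaled to a fixed sum per library, a unit inferred here from the values) and were among the 11244 genes tested. They ranged from Tfrc, at 1.56 to 9.91 TPM over the libraries, to Trf, at 11858 to 24025 TPM. Bulk RNA was sequenced from liver lysate of wild-type mice kept on the Lieber-DeCarli liquid diet, which is widely used to model liver disease from alcohol. The 45 libraries fall into 12 groups by stage, diet label and sex label. At the peak stage mice had received the ethanol diet or the control diet for 6 weeks. At early resolution the ethanol diet had been followed by control diet for 3 days, and at late resolution by control diet for 2 weeks. The treatment text does not describe the control-labelled mice of the resolution stages separately. Of the groups, 9 held 4 libraries and 3 held 3 libraries, namely the early ethanol-labelled females and the late ethanol-labelled females and males. Each library carries the name its labels give it, such as peak ethanol female 3. Whether replicates are separate animals is not stated in the labels, and the p-values cover the spread between libraries only, which may be technical.

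Hepcidin is a peptide hormone, secreted mainly by hepatocytes, that binds the iron exporter ferroportin and causes its removal from cell membranes, so that less iron enters the plasma. Its transcription in hepatocytes is driven by iron through BMP receptors and SMAD proteins, and by interleukin-6 through STAT3. Metallothioneins are small cysteine-rich proteins that bind zinc and copper, and their liver transcripts are known to respond to zinc, glucocorticoids and inflammation. Mice carry a pair of hepcidin genes. Hamp encodes the active hormone, while Hamp2 is a neighbouring copy whose liver transcript is known to be more abundant in female than in male mice.

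That background bears on the labels, because the sex-chromosome transcripts followed the diet label and not the sex label. Xist, the RNA that inactivates an X chromosome in females, was above the Y-linked Eif2s3y in 22 libraries. These were all 21 ethanol-labelled libraries and late control female 1, with Xist between 13.7 and 51.8 TPM. The other 23 control-labelled libraries had 7.83 to 12.7 TPM of Eif2s3y and at most 0.349 TPM of Xist. The sex label was contradicted in 22 of the 45 libraries, 11 female-labelled and 11 male-labelled. Liver genes known for a large sex difference followed the diet label too. Mup7, known to be male-biased, had 3.2 to 170 TPM in ethanol-labelled libraries, against 6394 to 42470 TPM in those 23 control-labelled libraries, and the female-biased Cyp2a4 had 699 to 6438 TPM, against 0.0559 to 82.9 TPM. Late control female 1 had 8.96 TPM of Mup7 and 1862 TPM of Cyp2a4. As deposited, all 7 listed genes of this kind were called between diet labels at each stage (limma adjusted p under 0.05), while between sex labels 1 was called at peak and 0 at either later stage. Diet and sex can therefore not be told apart in any comparison of diet labels here. What the sex labels stand for cannot be settled either, and whether diet and sex labels were exchanged was not tested. A difference between sex labels below is thus a difference between labels, not shown to be one between sexes or to be free of diet. Late diet differences that gained or lost a call without late control female 1, and others of named genes that it moved, are also given without it. Hepatocyte markers summed to 151533 to 221361 TPM in ethanol-labelled libraries and to 92955 to 197300 TPM in control-labelled libraries, with none of the 7 markers at 0. In whole liver, fewer cells of a type and less RNA per cell cannot be told apart.

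The promoters of the hepcidin pair are shown because Hamp2 had the largest difference of the 10 genes between diet labels and is a near copy of Hamp. Each is the stretch of 250 bases before the start that RefSeq annotates (GRCm38.p6), read 5′ to 3′ on the gene's own strand. Capitals mark GGCGCC, known as the BMP-responsive element of hepcidin promoters, and TTCNNNGAA, the STAT motif.
Hamp, chr7:30944030-30944279, minus strand: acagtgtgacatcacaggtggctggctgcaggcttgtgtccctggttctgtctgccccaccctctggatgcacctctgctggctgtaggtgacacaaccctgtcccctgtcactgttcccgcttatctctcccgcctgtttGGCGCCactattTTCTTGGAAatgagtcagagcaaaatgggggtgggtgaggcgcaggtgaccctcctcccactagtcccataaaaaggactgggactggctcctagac
Hamp2, chr7:30924182-30924431, minus strand: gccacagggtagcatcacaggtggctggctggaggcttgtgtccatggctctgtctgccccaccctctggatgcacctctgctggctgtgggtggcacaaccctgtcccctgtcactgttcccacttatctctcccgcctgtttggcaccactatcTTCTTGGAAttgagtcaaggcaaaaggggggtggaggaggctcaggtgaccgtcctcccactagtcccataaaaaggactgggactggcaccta
The pair of windows was identical at 227 of 253 aligned positions (89.7%). GGCGCC stood 109 to 104 bases before the Hamp start, and the aligned Hamp2 bases were GGCACC, the substitution G4A counted from the 5′ end of the hexamer. The STAT motif, as TTCTTGGAA, was present in both. On both strands, GGCGCC occurred in 9.59% and TTCNNNGAA in 7.02% of the 32851 RefSeq promoter windows of this length. In the GENCODE M21 annotation of the same build Hamp spans chromosome 7 from 30942368 to 30944032 and Hamp2 from 30922372 to 30924681, so the Hamp2 window lies inside its longer gene model. Their longest coding transcripts were identical at 388 of 437 aligned bases (88.8%). Reads of the pair may have been divided between them in a way the table does not record, so their levels are uncertain to that extent.

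The metallothionein promoters are shown because Mt1 and Mt2 varied together more closely than any other pair of members. Capitals mark the core of the metal response element, searched as TGCACNC and TGCGCNC on both strands.
Mt2, chr8:94172368-94172617, plus strand: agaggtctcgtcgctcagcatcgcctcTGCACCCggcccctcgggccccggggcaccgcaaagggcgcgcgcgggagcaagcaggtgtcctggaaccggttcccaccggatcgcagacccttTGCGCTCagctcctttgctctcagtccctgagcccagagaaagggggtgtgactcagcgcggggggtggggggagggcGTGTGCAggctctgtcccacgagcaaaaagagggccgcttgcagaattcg
Mt1, chr8:94178839-94179088, plus strand: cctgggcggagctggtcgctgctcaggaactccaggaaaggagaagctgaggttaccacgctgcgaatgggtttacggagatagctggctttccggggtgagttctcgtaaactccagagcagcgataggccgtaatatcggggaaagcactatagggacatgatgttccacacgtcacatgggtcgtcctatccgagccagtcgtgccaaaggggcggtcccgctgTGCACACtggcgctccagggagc
The Mt2 window held 3 matches, which began 223, 128 and 50 bases before the start, the nearest of them on the other strand. The Mt1 window held 1, which began 23 bases before the start. GENCODE M21 places these genes differently. The Mt2 window ends at 94172617, before the gene start at 94172664, and the Mt1 window ends at 94179088, past the gene start at 94179082. The match counts hold for these windows only, and bases outside them were not searched. At least 1 match occurred in 21.4% of all windows. Of the other members, Steap4 had the STAT motif (TTCCCGGAA, 116 to 108 bases before its start), and in the windows of Tfrc and Fth1 that motif was not found. A Tfrc window held GGCGCC, 89 to 84 bases before its start, and 2 overlapping metal response cores. In total 7 of the 10 members had RefSeq windows, 9 in number, and Trf, Slc40a1 and Slc39a14 had none in the table used.

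The ethanol label went with higher hepcidin transcripts at every stage and, at peak, with higher Slc39a14 and Steap4. Differences are on the log2(TPM + 0.5) scale, ethanol-labelled minus control-labelled, averaged over the sex labels and tested with limma over all genes, and a gene is called at a Benjamini-Hochberg adjusted p under 0.05. At peak 4 of the 10 genes were called, all higher (Hamp, Hamp2, Slc39a14 and Steap4), against 27.1% of all genes tested called in either direction and 17.3% called higher. With the peak libraries fitted alone 6 were called, Mt1 and Mt2 being added, against 3241 of the 11244 genes tested. At early resolution 3 were called, all higher (Hamp, Hamp2 and Trf), against 16.7% of all genes and 14.3% called higher. At late resolution 2 were called, both higher (Hamp and Hamp2), against 12.8% of all genes and 8.82% called higher. The median difference of the 10 genes was 1.05 at peak, 0.46 at early resolution and 0.38 at late resolution, beside 0.05, 0.13 and 0.05 over all genes. Median-of-ratios scaling of the libraries gives differences relative to the shift of all genes. At early resolution the 10 genes then had a median of 0.28 and 2 were called, against 16.7% of all genes, with Trf no longer among them (0.21, limma adjusted p = 0.14). The direction of the calls over all genes depended on the scaling. Called higher were 63.8% of the called genes at peak, 85.3% at early and 68.9% at late resolution as deposited, and 42.1%, 45.5% and 40.6% with scaling, where 15.0%, 7.62% and 8.56% of all genes were called higher. With that scaling Hamp at late resolution was not called either (0.85, limma adjusted p = 0.061). As deposited, its late call was lost without late ethanol female 1 (0.84, limma adjusted p = 0.052).

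**Figure D1:**
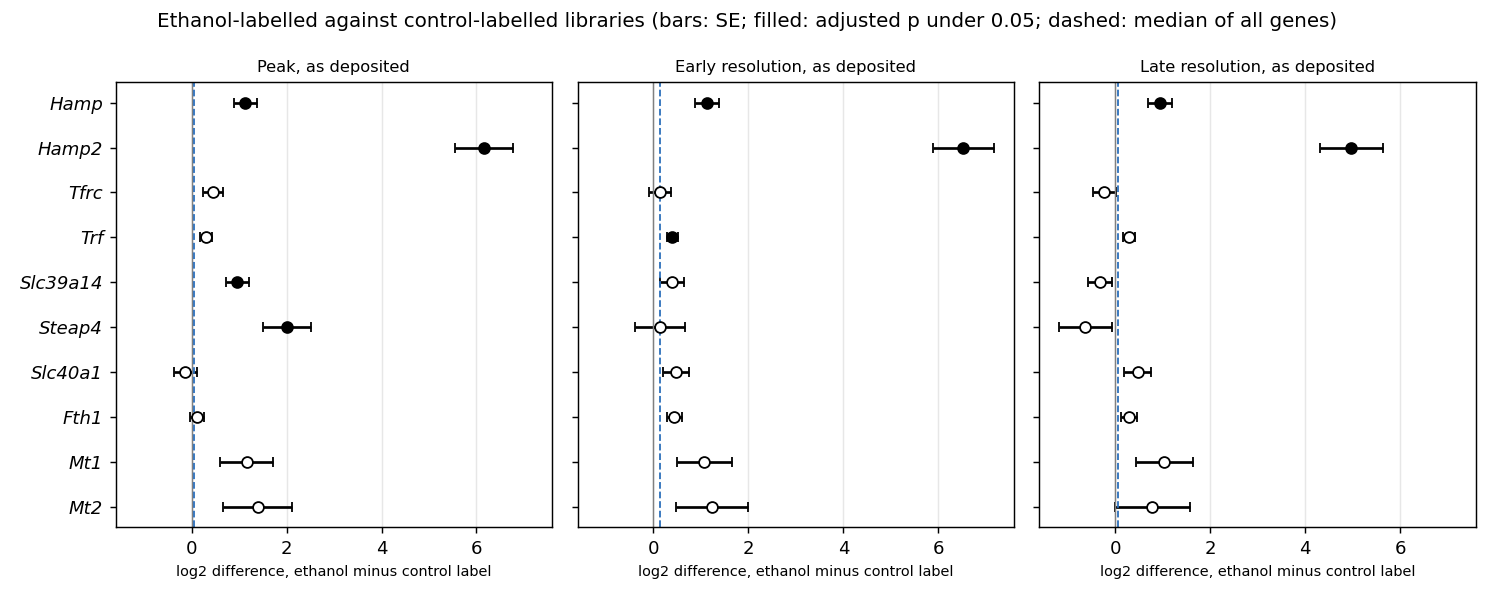
Difference between ethanol-labelled and control-labelled libraries (log2 scale, horizontal axis) for the 10 genes at the 3 stages, with SE bars, filled points at an adjusted p under 0.05 and a dashed line at the median of all genes. Hamp2 lies between 4.97 and 6.53 at every stage and Hamp between 0.94 and 1.13, while Steap4 is at 2.01 at peak, 0.14 at early resolution and -0.63 at late resolution.

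Hamp2 separated the diet labels in nearly every library. At peak it had 599, 603, 528 and 502 TPM in ethanol-labelled females, against 10.2, 17.2, 3.76 and 36.4 TPM in control-labelled females. Ethanol-labelled males at peak had 671, 605, 441 and 988 TPM, against 1.44, 12.5, 3.34 and 8.07 TPM in control-labelled males. The groups did not overlap, and the difference was 6.16 ± 0.61 (SE), or 71.6-fold, at an adjusted p of 8.9e-10 by limma. At early resolution Hamp2 had 163, 375 and 1096 TPM in ethanol-labelled females, against 11.8, 2.25, 5.87 and 13.8 TPM in control-labelled females. Ethanol-labelled males had 703, 1041, 1169 and 645 TPM at that stage, against 6.87, 3.61, 7.16 and 3.41 TPM in control-labelled males. Again no libraries overlapped, with a difference of 6.53 ± 0.64 (SE; limma adjusted p = 7.6e-10).

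At late resolution Hamp2 had 163, 449 and 609 TPM in ethanol-labelled females, against 428, 5.73, 28.1 and 4.96 TPM in control-labelled females. In males it had 252, 678 and 572 TPM in the ethanol-labelled group, against 30.6, 4.08, 2.77 and 3.41 TPM in the control-labelled group. The control-labelled value of 428 TPM was that of late control female 1, the library with Xist among the controls, and it lay inside the ethanol-labelled range. The difference was 4.97 ± 0.66 (SE; limma adjusted p = 9.5e-07) with that library and 5.65 (adjusted p = 2.3e-10) without it. In the female-labelled libraries alone the difference was 3.81 with that library and 5.16 without it. The female-labelled call (adjusted p = 0.017) was lost without late control female 2 (3.13) or 4 (3.07) or late ethanol female 2 (3.64) or 3 (3.42). Over all stages Hamp2 stood between 163 and 1169 TPM in the 22 libraries where Xist was above Eif2s3y and between 1.44 and 36.4 TPM in the other 23. Diet label and sex-chromosome transcripts thus moved with Hamp2 together, and their parts in its level cannot be told apart.

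Hamp, the gene of the active hormone, was higher with the ethanol label by about 1 log2 unit at each stage, with overlapping ranges. At peak it had 5460, 4492, 7342 and 3203 TPM in ethanol-labelled females, against 3589, 1938, 1785 and 3386 TPM in control-labelled females. In males it had 5471, 6817, 7996 and 5929 TPM with the ethanol label, against 2539, 2495, 2289 and 3173 TPM with the control label. The male-labelled groups did not overlap, and peak ethanol female 4, at 3203 TPM, lay within the control-labelled range of its sex label. The peak difference was 1.13 ± 0.24 (SE, 2.19-fold; limma adjusted p = 0.00063).

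At early resolution Hamp had 8540, 6023 and 3441 TPM in ethanol-labelled females, against 2364, 953, 2490 and 1664 TPM in control-labelled females. In males it had 2620, 6578, 2334 and 3642 TPM with the ethanol label, against 1629, 4206, 1661 and 2595 TPM with the control label. Females did not overlap at this stage and males did. The difference was 1.13 ± 0.25 (SE; limma adjusted p = 0.0018), and 0.95 (adjusted p = 0.035) relative to the all-gene shift.

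At late resolution the split was the other way round, with Hamp at 5697, 4889 and 3127 TPM in ethanol-labelled females, against 3166, 2423, 4943 and 3831 TPM in control-labelled females. Ethanol-labelled males had 3636, 5089 and 4464 TPM, against 1500, 1413, 2423 and 1039 TPM in control-labelled males. Here males did not overlap and females did. The difference was 0.94 ± 0.26 (SE; limma adjusted p = 0.015), and 0.91 (adjusted p = 0.017) without late control female 1. None of the 10 genes had a called interaction of diet and sex label at any stage. By limma, interactions at an unadjusted p under 0.05 numbered 2 of the 10 genes at peak, 1 at early resolution and 1 at late resolution, and the shares of all genes called were 0.160%, 0.00889% and 0.0445%.

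**Figure D2:**
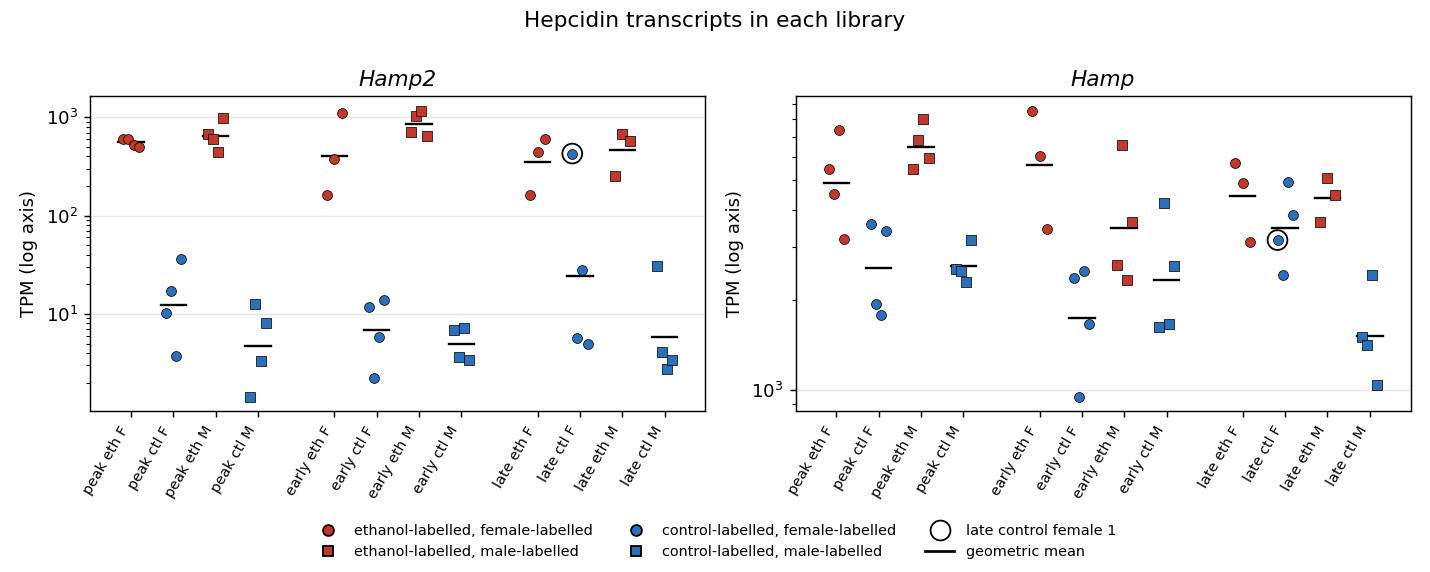
Hamp2 and Hamp in each library (TPM, log axis) by group, with the ethanol-labelled group left of its control-labelled group, horizontal lines at geometric means and a ring around late control female 1. Hamp2 lies at 163 TPM or more in every ethanol-labelled library and in the ringed library, and at 36.4 TPM or less in the other 23 control-labelled libraries, while the Hamp ranges overlap.

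As a share of the Hamp level in the same library, Hamp2 was 1.9% to 50.1% in ethanol-labelled libraries. It was 0.0568% to 2.04% in the 23 control-labelled libraries other than late control female 1, where it was 13.5%. Across the 45 libraries the log2 levels of the pair had Pearson r = 0.67, and r = -0.02 once the mean of each group was removed. The libraries share the groups, so both values are descriptions.

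Among genes of BMP signalling and iron sensing, Id1, which like Hamp is a transcriptional target of BMP signalling, was higher with the ethanol label at every stage. The list of BMP, SMAD and iron-sensing genes had 19 members, of which 14 were tested. Called higher were 2 at peak (Id1 and the signal transducer gene Smad1), 1 at early resolution and 1 at late resolution, both times Id1, and none was called lower. These were 2, 1 and 1 of 14 genes, beside 17.3%, 14.3% and 8.82% of all genes called higher. At peak Id1 had 25.0, 31.6, 21.5 and 20.6 TPM in ethanol-labelled females, against 7.18, 7.55, 9.95 and 12.2 TPM in control-labelled females. Ethanol-labelled males had 15.5, 10.2, 12.2 and 27.5 TPM, against 2.88, 4.44, 2.23 and 2.33 TPM in control-labelled males. The groups did not overlap within a sex label, with a difference of 1.80 ± 0.19 (SE; limma adjusted p = 5.1e-09). The Id1 difference was 1.99 ± 0.20 at early resolution and 1.49 ± 0.21 at late resolution (limma adjusted p = 1.9e-09 and 2.6e-06), and 1.60 at late resolution without late control female 1. Smad1 differed by 0.68 ± 0.14 at peak (limma adjusted p = 0.00054). The ligand gene Bmp2, made by liver endothelial cells, differed by 0.30 ± 0.13 at peak (adjusted p = 0.079) and the iron-sensing gene Hfe by 0.19 ± 0.08 (adjusted p = 0.067). The list's median difference was 0.21 at peak, 0.10 at early resolution and -0.03 at late resolution. Of 8 sinusoidal endothelial markers 8 were called higher with the ethanol label at peak, and 7 with median-of-ratios scaling. The shares of all genes called higher there were 17.3% and 15.0%. Their sum was 225 to 270 TPM in ethanol-labelled females, against 96.8 to 206 TPM in control-labelled females, and 83.3 to 185 TPM in ethanol-labelled males, against 54.8 to 138 TPM in control-labelled males. None of these markers was at 0, and their part in the result was not tested.

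Transferrin, the plasma iron carrier encoded by Trf and made by hepatocytes, was the most abundant transcript of the set, with the narrowest range relative to its level. At early resolution Trf had 15288, 19267 and 23090 TPM in ethanol-labelled females, against 12314, 17530, 17887 and 11858 TPM in control-labelled females. Ethanol-labelled males had 20560, 15767, 21228 and 19966 TPM, against 16977, 11936, 15426 and 13790 TPM in control-labelled males. The ranges overlapped, and the difference was 0.40 ± 0.12 (SE; limma adjusted p = 0.026), the call that was lost relative to the all-gene shift. The call was also lost without early control female 1 (0.35) or 4 (0.35), early control male 2 (0.35), or early ethanol female 2 (0.39) or 3 (0.32). At peak Trf averaged 19274 ± 3267 TPM with the ethanol label and 15612 ± 2067 TPM with the control label (SD, n = 8 each), a difference of 0.30 ± 0.12 (SE; limma adjusted p = 0.061). At late resolution the difference was 0.29 ± 0.13 (adjusted p = 0.13), and 0.36 (adjusted p = 0.04) without late control female 1, which had the highest Trf of its group at 22233 TPM.

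Tfrc, which encodes the transferrin receptor through which cells take up iron, was the least abundant member and differed by 0.45 ± 0.22 between diet labels at peak (SE; limma adjusted p = 0.13). In peak males it had 9.91, 7.69, 5.89 and 7.14 TPM with the ethanol label, against 4.92, 3.63, 2.76 and 4.28 TPM with the control label. These groups did not overlap, and the difference within male-labelled libraries was 0.89 ± 0.32 (SE; limma adjusted p = 0.037). That call was lost without peak ethanol male 1 (0.77), 2 (0.88) or 4 (0.92), or peak control male 2 (0.87) or 3 (0.76). In peak females it had 2.46, 5.18, 9.40 and 8.57 TPM with the ethanol label, against 3.17, 6.86, 6.82 and 6.80 TPM with the control label, and these overlapped. At peak within the male label 5 of the 10 genes were called, all higher (Hamp, Hamp2, Tfrc, Slc39a14 and Steap4), against 23.4% of all genes. Within the female label only Hamp2 was called, against 6.65% of all genes. At early resolution Hamp and Hamp2 were called within the female label (3.92% of all genes) and Hamp2 within the male label (8.39% of all genes). At late resolution Hamp2 was called within the female label (2.46% of all genes), and Hamp and Hamp2 within the male label (6.44% of all genes), where Hamp was lost without late ethanol male 2 (1.41, limma adjusted p = 0.052).

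Slc39a14 and Steap4 were higher with the ethanol label at peak and were not called at either resolution stage. Slc39a14 (ZIP14) encodes a transporter that brings zinc and iron not bound to transferrin into hepatocytes. It had 257, 212, 232 and 243 TPM in ethanol-labelled males at peak, against 90.9, 61.5, 90.3 and 157 TPM in control-labelled males. In females it had 52.5, 78.1, 182 and 76.1 TPM with the ethanol label, against 45.4, 78.2, 60.8 and 47.9 TPM with the control label. The male-labelled groups were separate, and among the ethanol-labelled females number 3 alone stood above all control-labelled females and males. The peak difference was 0.96 ± 0.24 (SE, 1.95-fold; limma adjusted p = 0.0028), and 0.79 without peak ethanol female 3. It was 0.39 ± 0.25 at early resolution (adjusted p = 0.31) and -0.32 ± 0.26 at late resolution (adjusted p = 0.43).

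Steap4 encodes a metalloreductase that reduces iron and copper before transport. At peak it had 1271, 856, 877 and 1365 TPM in ethanol-labelled males, against 107, 53.2, 120 and 353 TPM in control-labelled males. In females it had 75.4, 90.8, 481 and 70.3 TPM with the ethanol label, against 34.3, 109, 89.5 and 53.7 TPM with the control label. All 4 ethanol-labelled males stood above every other library of the stage, and peak ethanol female 3 came next. The difference was 2.01 ± 0.51 (SE, 4.02-fold; limma adjusted p = 0.0033), and 1.68 without peak ethanol female 3. At early resolution it was 0.14 ± 0.53 (adjusted p = 0.90) and at late resolution -0.63 ± 0.55 (adjusted p = 0.46).

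The change of the diet difference between peak and late resolution was tested directly. It was called for Slc39a14, at -1.28 ± 0.35 (SE; limma adjusted p = 0.035), and for Steap4, at -2.64 ± 0.75 (adjusted p = 0.040), which makes 2 of the 10 genes against 3.98% of all genes. Both calls lay close to the threshold, and leaving out any 1 of several libraries lost them. For Slc39a14 the call was lost when any of 12 libraries was left out. These were late ethanol female 1, all 3 late ethanol males, late control female 4, late control male 3, peak ethanol female 3, peak ethanol male 1, peak control females 1 and 4 and peak control males 1 and 2. For Steap4 it was lost without any of these or of late control male 4, peak ethanol male 4 and peak control male 3, 15 in all. The values without 1 library ran between -1.40 and -1.09 for Slc39a14 and between -2.89 and -2.26 for Steap4. By limma none of the 10 genes had a called change between peak and early resolution or between early and late resolution, with 1 and 0 of them at an unadjusted p under 0.05. No gene in the table was called in either (0.00% of all genes).

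**Figure D3:**
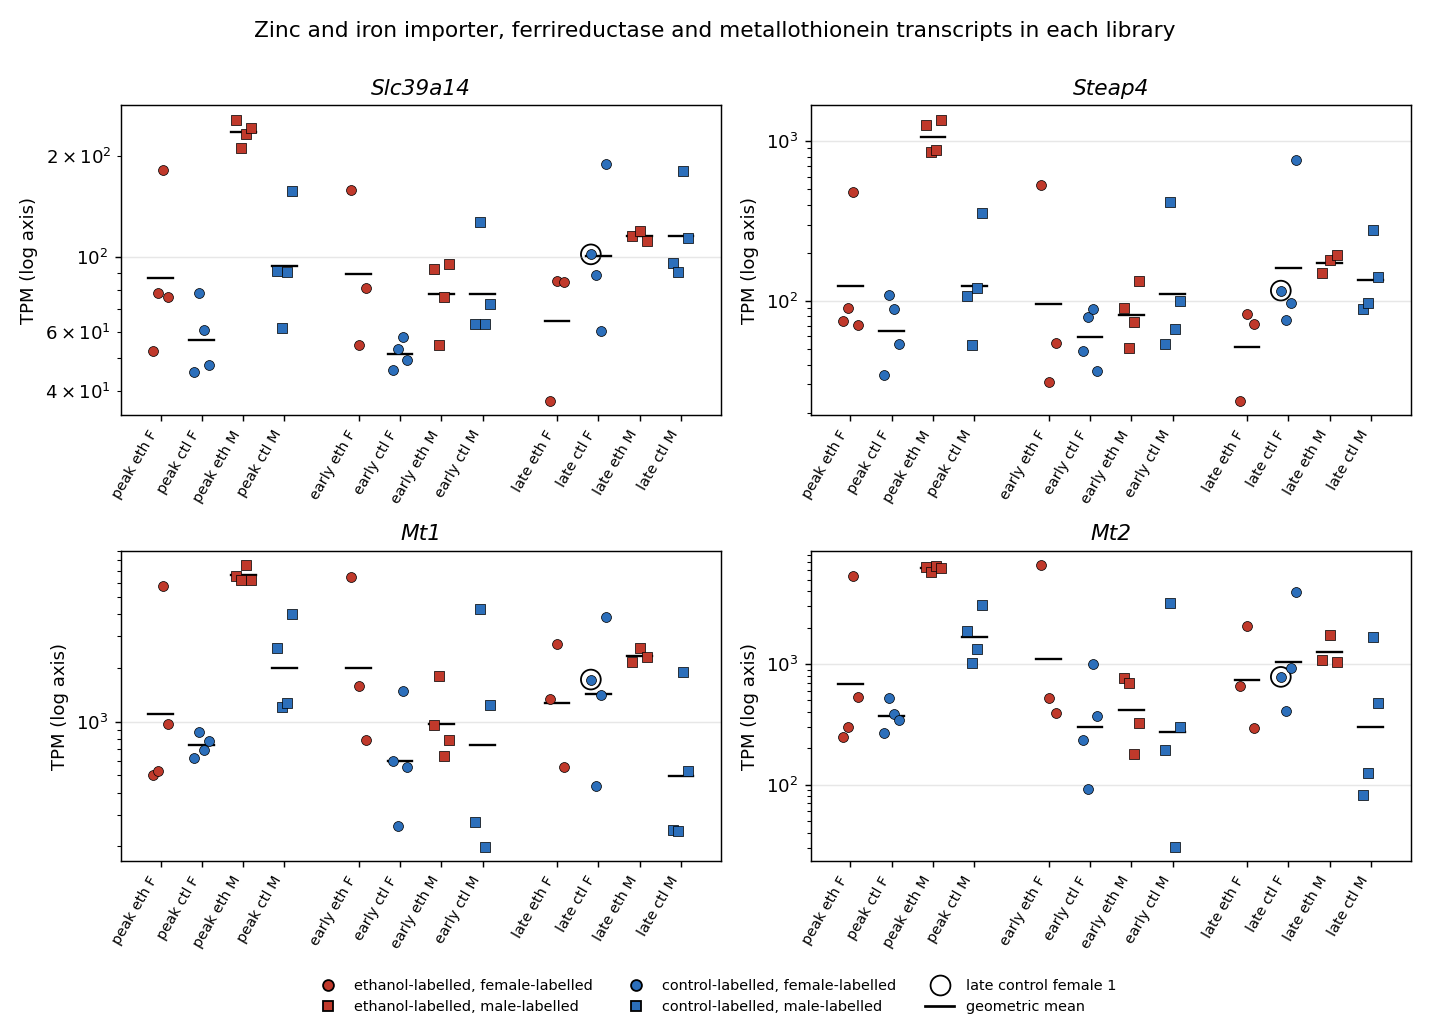
Slc39a14, Steap4, Mt1 and Mt2 in each library (TPM, log axis), with the ethanol-labelled group left of its control-labelled group and horizontal lines at geometric means. The 4 ethanol-labelled males at peak form the highest group in every panel, and peak ethanol female 3, early ethanol female 1, early control male 2 and late control female 4 stand above the rest of their groups.

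Mt1 and Mt2 showed large differences between libraries of the same group, and with all libraries in the fit neither was called for the diet label at any stage. With the peak libraries alone both were called there (Mt1 at 1.16, limma adjusted p = 0.046, and Mt2 at 1.39, adjusted p = 0.042). Mt1 at peak had 503, 530, 5772 and 972 TPM in ethanol-labelled females, against 629, 874, 694 and 777 TPM in control-labelled females. Ethanol-labelled males had 6514, 6235, 7508 and 6242 TPM, against 2578, 1202, 1269 and 3999 TPM in control-labelled males. Ethanol-labelled males were thus above all control-labelled libraries, while 2 of the 4 ethanol-labelled females were below every control-labelled library. Mt2 followed with 250, 301, 5389 and 535 TPM in ethanol-labelled females, against 269, 522, 384 and 344 TPM in control-labelled females. In males Mt2 had 6335, 5734, 6507 and 6205 TPM with the ethanol label, against 1876, 1025, 1343 and 3056 TPM with the control label. The diet difference at peak was 1.16 ± 0.56 for Mt1 (SE; limma adjusted p = 0.12) and 1.39 ± 0.73 for Mt2 (adjusted p = 0.16).

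During resolution the metallothionein ranges were just as wide. Mt1 had 6478, 1579 and 792 TPM in early ethanol-labelled females, against 601, 259, 1486 and 554 TPM in control-labelled females. In early males it had 963, 1795, 642 and 785 TPM with the ethanol label, against 275, 4301, 199 and 1246 TPM with the control label. The library labelled early control male 2 was thus higher than all 4 ethanol-labelled males. The difference at early resolution was 1.07 ± 0.58 for Mt1 (SE; limma adjusted p = 0.22) and 1.24 ± 0.76 for Mt2 (adjusted p = 0.28). At late resolution Mt1 had 1339, 2733 and 556 TPM in ethanol-labelled females, against 1721, 439, 1409 and 3832 TPM in control-labelled females, and 2147, 2572 and 2294 TPM in ethanol-labelled males, against 246, 243, 1909 and 529 TPM in control-labelled males. For Mt1 males did not overlap and females did. For Mt2 late control male 3, at 1664 TPM, lay among the ethanol-labelled males, at 1087, 1750 and 1046 TPM. The differences were 1.03 ± 0.60 for Mt1 (SE; limma adjusted p = 0.26) and 0.78 ± 0.79 for Mt2 (adjusted p = 0.53).

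The metallothionein pair kept a close relation over this wide range. Across the 45 libraries Mt1 and Mt2 had Pearson r = 0.96, and r = 0.95 after group means were removed. The level of Mt2 divided by that of Mt1 ran between 0.154 and 1.06 with a median of 0.597. Both genes lie on chromosome 8, Mt2 from 94172664 to 94173568 and Mt1 from 94179082 to 94180327 (GENCODE M21, GRCm38).

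Within the ethanol label at peak, the male-labelled and female-labelled libraries differed in 6 of the 10 genes. Steap4, Slc39a14, Mt1 and Mt2 were higher in male-labelled libraries, and Slc40a1 and Fth1 were lower. This stood against a background of 49.4% of all genes called, nearly all lower with the male label (45.2%), with an all-gene median of -0.39, and 4.24% of all genes called higher. Values are therefore given relative to that shift, where 5 were called higher and 1 lower against 31.5% of all genes called and 15.6% called higher. Relative to the shift Steap4 differed by 3.58 ± 0.80, Mt2 by 3.65 ± 1.13, Mt1 by 3.05 ± 0.89, Slc39a14 by 1.90 ± 0.40 and Tfrc by 0.80 ± 0.30, male-labelled minus female-labelled (SE; limma adjusted p between 0.0007 and 0.041). Slc40a1 differed by -1.11 ± 0.26 (adjusted p = 0.0022). For Fth1 the difference of -0.83 ± 0.22 as deposited became -0.36 (adjusted p = 0.18). Leaving out peak ethanol female 3, the female-labelled library most like the males, gave differences as deposited of 3.37 in place of 2.58 for Mt1, 4.17 in place of 3.18 for Mt2 and 3.76 in place of 3.11 for Steap4. Without peak ethanol female 1 the Mt2 difference was 2.70 and not called (limma adjusted p = 0.053). By limma no member was called between sex labels within the control label at peak (2.90% of all genes), with 3 of the 10 at an unadjusted p under 0.05. The diet by sex interaction was not called for any of them, so a difference between the labels in this contrast is not shown.

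Averaged over the diet labels, the male-labelled and female-labelled libraries at peak differed in 6 of the 10 genes as deposited and in 7 relative to the all-gene shift of -0.29, against 51.0% and 31.6% of all genes called. In the early libraries limma called 0 of the 10 between sex labels, with 0 at an unadjusted p under 0.05, against 0.596% of all genes. At late resolution Tfrc alone was called, against 3.25% of all genes. It averaged 6.04 ± 1.76 TPM in male-labelled and 3.05 ± 1.40 TPM in female-labelled libraries (SD, n = 7 each), a difference of 0.96 ± 0.24 (SE; limma adjusted p = 0.025). The call was lost without late control female 3 (0.88), late ethanol female 1 (0.86) or 2 (0.99), or late ethanol male 1 (0.99), 2 (0.95) or 3 (0.95).

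Acute-phase transcripts moved with these libraries. Saa1, the serum amyloid gene, had 13804, 15115, 16395 and 10240 TPM in peak ethanol-labelled males, against 138, 86.3, 12290 and 227 TPM in peak ethanol-labelled females. Lcn2, the iron-siderophore binding lipocalin, had 7572, 6243, 9272 and 6918 TPM in the males, against 51.9, 45.2, 3938 and 82.2 TPM in the females. In both, female 3 was the only female-labelled library near the males, as it was for Mt1, Mt2 and Steap4. Saa1 and Lcn2 were picked after their values were seen. Of 11 genes that respond to interleukin-6, 7 were called higher with the male label and none lower, with or without median-of-ratios scaling, beside 4.24% of all genes called higher as deposited and 15.6% with scaling. Neutrophil markers summed to 99.8 to 152 TPM over the male-labelled libraries, against 7.47 to 44.2 TPM over the female-labelled libraries. With the scaling 5 of 5 tested markers of 8 listed were called higher, and Mpo was at 0 in all 4 female-labelled libraries. The part of these cells in the result was not tested.

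Ferroportin, the only known cellular iron exporter and the target of hepcidin, is encoded by Slc40a1, whose transcript ran opposite to the metallothioneins. At peak it had 12.7, 22.3, 15.1 and 15.9 TPM in ethanol-labelled males, against 24.9, 33.0, 37.6 and 22.6 TPM in control-labelled males. In females it had 50.0, 70.3, 26.0 and 63.7 TPM with the ethanol label, against 33.7, 36.5, 31.9 and 30.3 TPM with the control label. Of the ethanol-labelled females 3 of 4 were above all control-labelled females, with female 3 the exception, and all 4 ethanol-labelled males were below all control-labelled males. The difference was 0.57 ± 0.36 within the female label (SE; limma adjusted p = 0.38) and -0.82 ± 0.36 within the male label (adjusted p = 0.093). With median-of-ratios scaling the male-labelled difference was -0.79 and called (adjusted p = 0.020). Kupffer cell markers, a list of macrophage genes, summed to 153 to 337 TPM in the ethanol-labelled males at peak, against 204 to 222 TPM in control-labelled males, and to 313 to 433 TPM in ethanol-labelled females, against 161 to 340 TPM in control-labelled females. None of the 8 was at 0 in a group, and between sex labels within the ethanol label 1 of them was called lower, with or without scaling. Their part in the Slc40a1 level was not tested. The diet difference averaged over sex labels was -0.13 ± 0.25 (SE; limma adjusted p = 0.75). It was 0.48 ± 0.27 at early resolution (adjusted p = 0.23) and 0.47 ± 0.28 at late resolution (adjusted p = 0.25), or 0.65 (adjusted p = 0.079) without late control female 1. Across the 45 libraries Slc40a1 had r = -0.66 with Mt1 and r = -0.36 with Hamp, and -0.75 and -0.69 after group means were removed.

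Fth1, which encodes the heavy chain of the iron storage protein ferritin, was not called for the diet label at any stage. At peak it averaged 1777 ± 610 TPM with the ethanol label and 1639 ± 600 TPM with the control label (SD, n = 8 each), a difference of 0.12 ± 0.15 (SE; limma adjusted p = 0.59). At early resolution the difference was 0.44 ± 0.16 (adjusted p = 0.053) and at late resolution 0.28 ± 0.17 (adjusted p = 0.26), or 0.37 (adjusted p = 0.12) without late control female 1. The split at peak was by sex label, with 1196, 1352, 1139 and 1399 TPM in ethanol-labelled males, against 2847, 2200, 1848 and 2234 TPM in ethanol-labelled females. In control-labelled males it had 1102, 1573, 1131 and 1107 TPM, against 2616, 1496, 1608 and 2482 TPM in control-labelled females. The difference, male-labelled minus female-labelled, was -0.77 ± 0.15 (SE; limma adjusted p = 0.00023), and -0.42 (adjusted p = 0.026) relative to the all-gene shift. Ferritin protein is known to be set largely through translation, which these data do not measure.

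**Figure D4:**
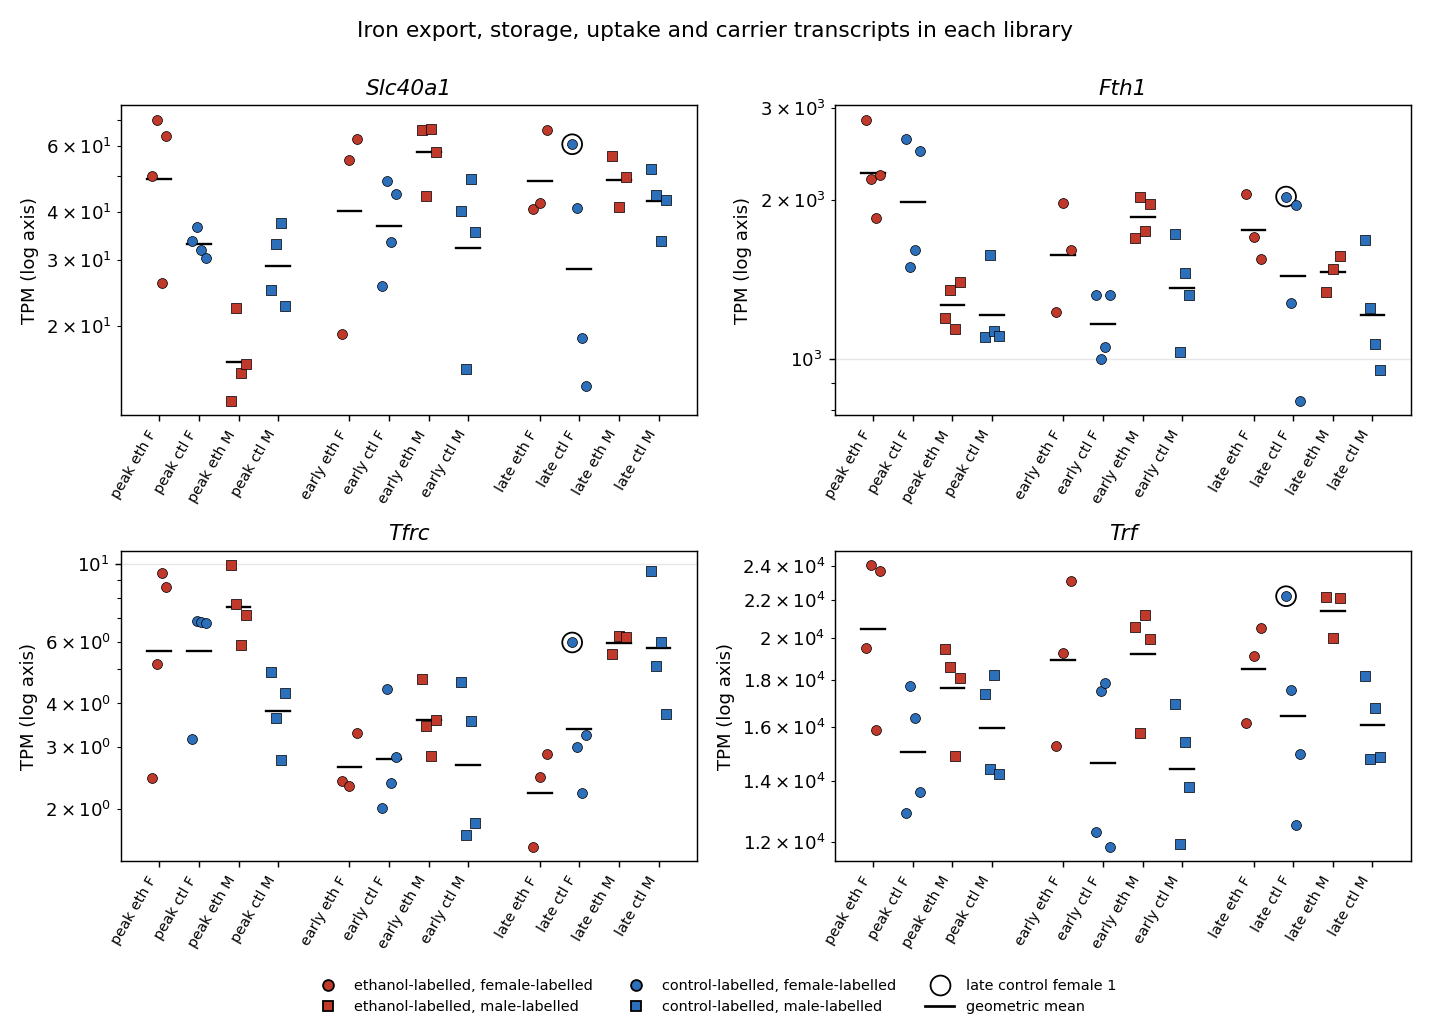
Slc40a1, Fth1, Tfrc and Trf in each library (TPM, log axis), with the ethanol-labelled group left of its control-labelled group and horizontal lines at geometric means. The Slc40a1 group with the lowest mean is the ethanol-labelled males at peak (12.7 to 22.3 TPM), while Trf stays between 11858 and 24025 TPM in all 45 libraries.

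Between stages, ethanol-labelled libraries of both resolution stages differed from those at peak in 4 of the 10 genes, and each comparison uses the same 8 peak libraries. Early resolution against peak had 26.5% of all genes called and late resolution against peak 22.0%, with all-gene medians of 0.16 and 0.14. The following differences are relative to those shifts, where 4 of the 10 genes were again called, against 26.6% and 24.8% of all genes. Of the genes called, 81.2% and 79.4% were higher as deposited and 45.2% and 50.1% with scaling. Tfrc was lower, with -1.16 ± 0.22 for early resolution minus peak and -0.91 ± 0.23 for late resolution minus peak (SE; limma adjusted p = 0.00036 and 0.0044). Steap4 was lower, with -2.22 ± 0.59 for the early stage and -2.11 ± 0.61 for the late stage (adjusted p = 0.0056 and 0.011). Slc39a14 was lower, with -0.98 ± 0.29 for the early stage and -0.90 ± 0.30 for the late stage (adjusted p = 0.013 and 0.028). Slc40a1 was higher, with 0.57 ± 0.20 for the early stage and 0.60 ± 0.20 for the late stage (adjusted p = 0.029 and 0.026). As levels, Tfrc averaged 3.23 ± 0.817 TPM at early resolution (SD, n = 7) and 4.14 ± 2.07 TPM at late resolution (SD, n = 6), against 7.03 ± 2.46 TPM at peak (SD, n = 8). Steap4 averaged 138 ± 177 TPM at early and 117 ± 67.7 TPM at late resolution, against 636 ± 534 TPM at peak. Markers of other cells moved between the same groups. Neutrophil markers summed to 3.54 to 13.4 TPM in ethanol-labelled males at early and 33.2 to 56.2 TPM at late resolution, against 99.8 to 152 TPM at peak. In ethanol-labelled females they summed to 7.85 to 99 TPM at early and 5.9 to 23.6 TPM at late resolution, against 7.47 to 44.2 TPM at peak. With scaling 4 of the 5 tested were called lower for early resolution against peak and 2 for late resolution against peak. Of the 11244 genes tested, 1637 and 1391 were called lower there. Lcn2 ran with them in ethanol-labelled males, at 302 to 1289 TPM at early and 1396 to 1732 TPM at late resolution, against 6243 to 9272 TPM at peak. Kupffer cell markers summed to 315 to 504 TPM in ethanol-labelled males at early and 332 to 544 TPM at late resolution, against 153 to 337 TPM at peak, and in females to 305 to 486 and 372 to 405 TPM, against 313 to 433 TPM. Of these 8, 1 and 2 were called higher as deposited, beside 2424 and 1965 of the 11244 genes, and 0 with scaling. The part of these cells in the results was not tested. For Hamp2 the differences were -0.22 and -0.75, for Hamp -0.55 and -0.53, for Mt1 -1.16 and -0.83 and for Mt2 -1.79 and -1.27, none called. By limma no member was called between late and early resolution with the ethanol label (0 at an unadjusted p under 0.05, 0.00% of all genes called). In control-labelled libraries no member was called between any stages as deposited, with 1, 1 and 2 of the 10 at an unadjusted p under 0.05 for early against peak, late against peak and late against early. The shares of all genes called there were 0.729%, 0.676% and 0.00%. With scaling 1 of the 10 was called in the control label, lower for early against peak, beside 262 of the 11244 genes. None was called with scaling for late against peak or late against early, beside 142 and 0 of the 11244 genes. Single libraries were left out only in fits as deposited, not in the scaled fits. As deposited, the ethanol-labelled Slc39a14 differences were -0.78 for early against peak and -0.72 for late against peak. Those of Slc40a1 were 0.76 and 0.77, and that of Tfrc for late against peak was -0.75. Without peak ethanol female 3, 2 of the 10 genes were called in the ethanol label for early against peak and 1 for late against peak. For early against peak, Slc39a14 was lost without early ethanol female 2 or 3 or peak ethanol female 3 (-0.74 to -0.60). Slc40a1 was lost without early ethanol female 2 or 3, early ethanol male 1 or 3, peak ethanol female 3 or peak ethanol male 1 (0.61 to 0.73). For late against peak, Slc39a14 was lost without late ethanol female 1, any late ethanol male, peak ethanol female 3 or peak ethanol male 1, 3 or 4 (-0.73 to -0.53). Slc40a1 was lost without late ethanol female 3, late ethanol male 1 or 3, peak ethanol female 3 or peak ethanol male 1, 3 or 4 (0.62 to 0.77). Tfrc was lost without late ethanol female 1, late ethanol male 1, peak ethanol female 3 or 4 or peak ethanol male 1 (-0.72 to -0.64).

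**Figure D5:**
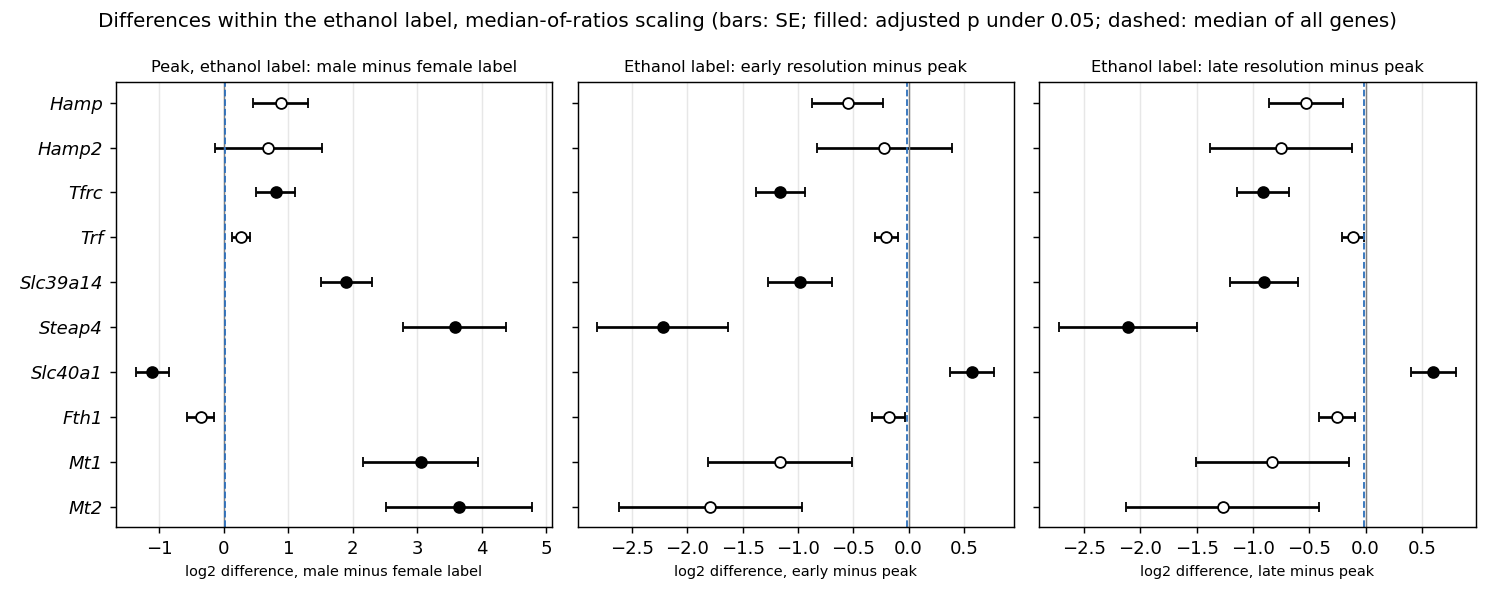
Differences within the ethanol label (log2 scale, horizontal axes) for the 10 genes after median-of-ratios scaling, with SE bars, filled points at an adjusted p under 0.05 and a dashed line at the median of all genes. The left panel is male minus female label at peak, the others are early and late resolution minus peak, and Steap4 is at 3.58, -2.22 and -2.11 while Slc40a1 is at -1.11, 0.57 and 0.60.

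Members also grouped by how they varied among libraries. Slc39a14 and Steap4 had r = 0.94 over the 45 libraries and 0.93 after group means were removed. Hamp and Mt1 had r = 0.75 and 0.70, and Trf and Slc40a1 r = 0.57 and 0.70. Fth1 and Slc39a14 ran opposite ways, with r = -0.49 and -0.75. These are descriptions over libraries that share groups and a fixed total per library.

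For each member the 3 other genes most like it across the 45 libraries were taken by Pearson r of the log2 level. Slc22a27, Slc22a26 and Hao2 were most like Hamp2, each with r = 0.97. Steap4 was most like Fgg, a fibrinogen chain gene, and Tmem87b (r = 0.94 each) and Snx10 (0.93). Slc39a14 was most like Snx10 and Tmem87b (0.95 each) and Tbl1xr1 (0.92). Mt1 was most like Crybb3 and Cldn14 (0.85 each) and Lcn2 (0.84), and Mt2 like Cldn14 (0.85), Slc37a1 and Bcl3 (0.83 each). Fth1 was most like Apoe, the apolipoprotein E gene (0.94), Ddrgk1 (0.93) and Aldh2, the mitochondrial acetaldehyde dehydrogenase gene (0.92). Slc40a1 was most like Gtf2i and Pex6 (0.93 each) and Aph1a (0.92). For Hamp, Tfrc and Trf the closest genes had r of 0.83 (Rp9), 0.82 (Tnfrsf1b) and 0.83 (Abca3). The next closest were Ap5s1 and Flot1 for Hamp (0.82 each), Adamts1 and Trp53inp1 for Tfrc (0.80 each), and Naip2 (0.82) and Enpp1 (0.81) for Trf.

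Of 13 zinc and metallothionein genes besides the members 11 were tested, and 5 were called higher at peak with the ethanol label, 2 at early and 2 at late resolution, with 1 lower at late resolution, beside 17.3%, 14.3% and 8.82% of all genes called higher. The 5 at peak were Slc39a1, Slc39a4, Slc39a5, Slc39a7 and Slc30a10. Slc39a4 and Slc39a5, which encode the zinc transporters ZIP4 and ZIP5, were higher at all 3 stages. Slc39a4 differed by 0.73 ± 0.19, 1.26 ± 0.19 and 1.24 ± 0.20 (SE; limma adjusted p = 0.0032, 1e-05 and 3.6e-05). Slc39a5 differed by 0.61 ± 0.21, 0.84 ± 0.21 and 0.76 ± 0.22 (adjusted p = 0.024, 0.0054 and 0.019). Without late control female 1 their late differences were 1.38 for Slc39a4 and 1.00 for Slc39a5. Slc39a1 was higher by 0.56 ± 0.09 at peak (adjusted p = 1.3e-05). Mtf1, the metal-responsive transcription factor of metallothionein genes, was lower at late resolution, with a difference of -0.38 ± 0.13 (adjusted p = 0.046), and was not called without late control female 1 (-0.36, limma adjusted p = 0.059), where the zinc exporter gene Slc30a5 was (-0.61, adjusted p = 0.037). With median-of-ratios scaling 3 were higher and 1 lower at peak, 2 and 1 at early resolution, and 2 and 4 at late resolution. The list's median difference as deposited was 0.25, -0.03 and -0.26.

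Of 28 other genes of iron uptake, storage, export and heme 22 were tested. With the ethanol label 4 were higher and 1 lower at peak, 2 higher at early resolution and 0 at late resolution, with medians of 0.13, 0.20 and 0.06. The shares of all genes called higher were 17.3%, 14.3% and 8.82%. Hmox1, which encodes the heme oxygenase that releases iron from heme, was higher by 1.28 ± 0.17 at peak and 0.75 ± 0.17 at early resolution (SE; limma adjusted p = 2.7e-07 and 0.0022) and differed by 0.42 ± 0.18 at late resolution (adjusted p = 0.11). Without late control female 1, whose 55.3 TPM was the highest control-labelled level of that stage, the late Hmox1 difference was 0.55 and called (limma adjusted p = 0.019), the 1 gene of this list then called. Fbxl5, which encodes the iron-sensing adaptor for removal of an iron regulatory protein, was higher by 0.37 ± 0.14 at peak (adjusted p = 0.042). Blvrb, a biliverdin reductase gene, was lower at peak, with a difference of -0.48 ± 0.17 (adjusted p = 0.032). Alas2, which encodes the heme synthesis enzyme of red cell precursors, was listed with the red cell markers and is named after its values were seen. It had 11.4 to 31.7 TPM in ethanol-labelled libraries, against 78.2 to 203 TPM in the control-labelled libraries other than late control female 1, which had 27.8 TPM. Its difference was -2.67 ± 0.22 at peak, -2.61 ± 0.23 at early resolution and -2.81 ± 0.23 at late resolution (SE; limma adjusted p = 1.1e-11, 6e-11 and 1.7e-10), and -3.10 at late resolution without that library. Alas2 thus ran with Xist and Eif2s3y over the libraries, as Hamp2 did. It was the 1 called of 5 tested red cell markers at each stage. Ftl1, the ferritin light chain gene, was higher by 0.41 ± 0.14 at early resolution (adjusted p = 0.031), and differed by 0.23 (adjusted p = 0.20) relative to the all-gene shift. The scaling turned the peak count to 2 higher and 5 lower, beside 15.0% of all genes called higher and 2325 of 11244 called lower. The direction of this list thus depended on the scaling, as did that of the calls over all genes. Of the 11 interleukin-6 response genes 3 were higher at peak (Stat3 by 0.87 ± 0.17, Lbp by 0.81 ± 0.22 and Fgb by 0.89 ± 0.30; limma adjusted p = 0.00017, 0.0062 and 0.023) and none at the later stages, except Lbp at late resolution without late control female 1 (0.75, adjusted p = 0.027).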

How the data were processed

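RNA of 45 mouse liver libraries was isolated with a spin-column kit and made into stranded mRNA libraries, per the labels' protocols, and the build was mm10, per the submitters' processing notes. Alignment, counting and annotation were not given in the sources used here. No label names a unit, and the values deposited by the authors were read as TPM because they sum to between 999999 and 1000001 per library with a smallest step above 0 that varies between genes. Sequencing depth and counting precision are therefore unknown. Entries with calendar dates as names, 26 in number and 0.0441% of TPM, were left out.

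Tests used limma 3.58.1 in R 4.3.3 on log2(TPM + 0.5) for the 11244 genes averaging 0.5 TPM or more, with 12 group means and a variance trend (33 residual degrees of freedom), Benjamini-Hochberg adjusted over all genes tested. Differences were taken between diet labels, sex labels and stages and their interactions. Changes relative to an all-gene shift used median-of-ratios scaling. The script was tested on simulated data. Tables, searches and plots used Python 3.11.15, pandas 2.3.3, Biopython 1.88 and matplotlib 3.10.9. Other settings tried were pseudocounts of 0.1 and 2, no filter or one at 5 TPM, quantile normalization, no variance trend, the stage alone, a false discovery rate of 0.01, the replicate number as a block and each library left out.

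All 10 members are named. Of other lists, the 4 genes with the smallest p per diet comparison could be named, and for each member the 3 genes most like it. The members and lists were chosen with earlier results of these data known. The labels give equal replicate numbers to different groups without saying that they pair. Of 21 pairs across diet labels, 7 had deviations correlated above 0.1. Among them were all 4 pairs of peak females (r = 0.109 to 0.222) and 3 of 4 pairs of early males (up to 0.25). Across sex labels 6 of 22 pairs were above 0.1 (up to 0.527), and across stages 13 of 43 (up to 0.491). Values for libraries with unequal numbers are not given beside these, so whether the numbers pair the libraries is not shown.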

Additional observations from a re-analysis of the deposited data

Results flagged for a closer look

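Each member was checked in each group of 4 libraries by Dixon's test on the log scale, 90 sets in all. In 4 sets a library lay far from the others at the critical value of 0.829, and chance alone gives such a library in about 1 in 20 sets. On this scale Hamp2 in late control female 1 was not flagged, although it had 428 TPM against at most 28.1 TPM in the rest of its group. Hamp2 had 30.6 TPM in late control male 1, the highest of its group. Tfrc had 3.17 TPM in peak control female 1, the lowest of its group. Fth1 had 1573 TPM in peak control male 2, the highest of its group. Steap4 had 481 TPM in peak ethanol female 3, the highest of its group, a library that also had the highest Slc39a14, Mt1 and Mt2 of the peak ethanol-labelled females. The diet difference of Slc39a14 at late resolution minus that at peak was -1.28, and that of Steap4 was -2.64, both past the threshold of the test of the difference itself.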

How the results depend on the processing

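None of the refitted results of the 10 genes reversed under any setting. This does not cover the other gene lists or the share of all genes called higher, which changed with scaling as given above. Refits of single genes cover 52 results. Included are those called in the main fit and, averaged over sex labels, the uncalled diet differences of Mt1, Mt2 and Trf. Most refits left out 1 library, often one outside the comparison, and only the uncalled results could gain a call. The values stayed on their side of the threshold in 2721 of 2846 refits, lost the call in 117 and gained it in 8. These are not rates over all comparisons of the 10 genes. Counts below are of the 10 genes called unless all genes are named, and the cause of a change was not tested. At a false discovery rate of 0.01 the count was 1 for diet at late resolution, 0 there among females, 0 for sex at late resolution, 0 for the late change of the diet difference, and 2 and 0 for early and late ethanol-labelled libraries against peak. That rate gave 1782, 924 and 636 of all genes for diet at peak, early and late resolution and 3679 for sex at peak. With no filter the count was 0 for the late change and 2 for late against peak. A mean of at least 5 TPM, which drops Tfrc, gave 0 for sex at late resolution, and 1617, 1075, 914 and 3213 of all genes in the order above. Median-of-ratios scaling gave 1 for diet at late resolution, with 2374 of all genes, and 3554 for sex at peak. Quantile normalization gave 4 for diet at late resolution (2423 of all genes), 2 among early males and 2 among peak females, and 3356 of all genes for sex at peak. The libraries of a stage alone gave 1 among early females, 2 among peak females, 0 among late females, 727 of all genes for diet at late resolution and 0 for sex there. With the replicate block the count was 1 for diet at late resolution (580 of all genes), 0 among late females, 1 among late males, 0 for sex at late resolution, 0 for the late change and 2 for late against peak. In peak females the replicate block kept the count at 1. Hamp2 was at 5.41 in both fits, which the equal replicate numbers of the groups fix in advance. Whether the numbers pair the libraries is not shown there or in other groups.

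With 1 library left out, counts ran from 2 to 5 for diet at early resolution (1123 to 3016 of all genes, the highest without early ethanol female 1), from 1 to 3 at late resolution, from 0 to 1 among late females, from 1 to 2 among late males and from 1 to 2 among peak females. They ran from 0 to 2 for the late change, from 2 to 5 and from 1 to 4 for early and late against peak, and from 0 to 1 for sex at late resolution. Depth is not recorded in TPM, so low levels such as those of Tfrc have an unknown counting error.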
